A study of Rattus norvegicus with 26 samples.

Results

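The injured spinal cord of vehicle-treated rats was followed from 1 to 4 weeks after injection. Gene expression at the lesion was compared between the 4 libraries of week 4 (+PBS-4w) and the 3 libraries of week 1 (+PBS-1w), which are 7 of the 26 RNA sequencing libraries of the study. The members are all genes that passed a filter on low counts, 17990 of the 32883 in the table. The comparison asks how the lesion changes by itself while no cells are given. Both groups were adult female wild type Sprague-Dawley rats whose cord was compressed at T10 with an aneurysm clip of 60 g for 1 min. They received PBS into the lumbar intrathecal space 7 days later, so that week 1 lay 14 days and week 4 lay 35 days after injury. Both also received daily cyclosporin A, which suppresses T lymphocytes, and penicillin after surgery. A segment of 5 mm centered on the lesion was taken, so scar, spared cord and entering cells are measured together. In such bulk samples, fewer cells of a type and less RNA per cell cannot be told apart. The labels give postnatal day 70 as the age of all animals and do not say whether age was counted at injury or at collection, so age and time since injury cannot be told apart. The other groups used here were Intact (4 libraries, labelled untreated), sub-SCI (3 libraries, injured and taken at the time of injection), +PBS-2w (2 libraries by the labels, whereas the study's methods give the smaller number to the +MSC group of week 2) and injured rats given mesenchymal stem cells from human umbilical cord (hUC-MSCs) and taken after 1 week (+MSC-1w, 3 libraries) or after 4 weeks (+MSC-4w, 4 libraries).

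After a crush of the spinal cord, microglia and macrophages from blood take up dead cells and myelin debris, T lymphocytes enter, and glia, fibroblasts and endothelial cells divide. Astrocytes then form a border around the lesion, and a core of collagen and other matrix proteins remains. Ependymal cells line the central canal and carry motile cilia, and Schwann cells from the nerve roots can enter the lesion and myelinate axons there.

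Total counts per library lay between 24391212 and 32946100 at week 1 and between 21327390 and 28291215 at week 4, and their log2 ratio was -0.17 (two-sided exact permutation test, p = 0.343, where 3 against 4 libraries cannot go below 0.0571). Levels are given as CPM, read counts scaled to each library's depth after TMM normalization. They are not scaled by gene length and are compared between libraries, not between genes. Within groups, no library was a mere resequencing of another: the closest pair, +MSC-2w replicates 2 and 3, varied 6.34 times more than sampling of reads alone allows. The next closest pair lay at 14.95. Whether any libraries came from the same rat or RNA was not tested. The labels do not say that each library came from a separate rat. Unless stated, p-values for genes measure a spread between libraries that was estimated from all 26 together. Pairs of libraries varied 53.22 to 164.26 times more than sampling of reads within +PBS-1w and 30.07 to 285 times within +PBS-4w. Pairs within Intact lay between 14.95 and 33.08 and those within sub-SCI between 40.61 and 133.35. The shared spread may therefore understate that of the compared groups.

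The libraries of a group were unlike in the levels of marker genes, and 1 library of each group stood apart. The first principal component of the 7 libraries held 41.5% of the variance and placed +PBS-4w replicate 1 at 104, with the others between -43.4 and 10.1. The summed level of 15 neuron markers was 9938 CPM in that library and 2764, 2990 and 3688 CPM in replicates 2 to 4 of week 4. At week 1 it was 4401, 3572 and 2087 CPM, while the 4 Intact libraries lay between 16071 and 19148 CPM. On the third component, which held 13.2%, +PBS-1w replicate 3 lay at 60.0, farther out than any other. Collagen genes summed to 10508 CPM in it against 4894 and 4643 CPM in the other week 1 libraries, and Schwann cell genes to 4043 CPM against 559 and 638 CPM. Leptomeningeal genes moved with them, at 3411 CPM against 690 and 636 CPM. The week 4 libraries held 2131, 4643, 3406 and 2686 CPM of Schwann cell genes and between 1005 and 2897 CPM of leptomeningeal genes. Skeletal muscle genes, of a tissue that lies outside the cord, summed to 294 CPM in +PBS-4w replicate 2 and to between 18.1 and 59.5 CPM in the other 6 libraries. The part of these differences in the results was not tested. Values without single libraries are given beside many of the results they move, but not for every list.

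**Figure D1:**
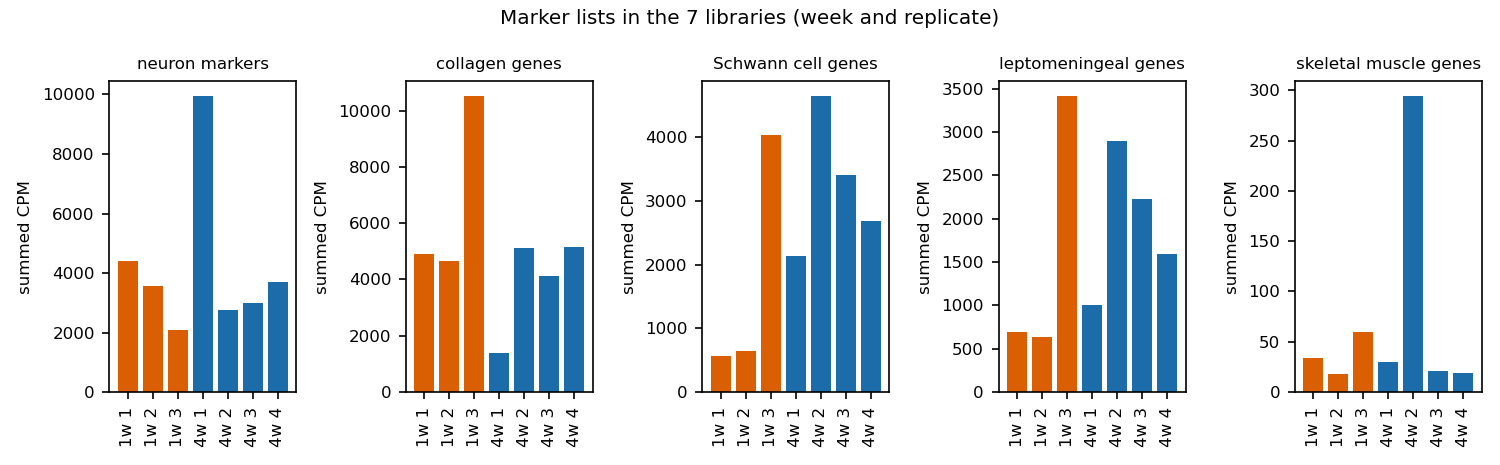
Summed CPM of 5 marker lists (vertical axes, linear, from 0) in each of the 3 +PBS-1w libraries (orange) and 4 +PBS-4w libraries (blue), 1 bar per library, labelled by week and replicate. Neuron markers peak in week 4 replicate 1 (9938 CPM), collagen genes in week 1 replicate 3 (10508 CPM) and skeletal muscle genes in week 4 replicate 2 (294 CPM). Schwann cell and leptomeningeal genes are higher in week 1 replicate 3 than in the other week 1 libraries. Schwann cell sums of the week 4 libraries lie between 2131 and 4643 CPM.

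Few genes differed by a large and well supported amount between week 1 and week 4. DEGs were genes past 1 on the log2 scale, up or down, whose adjusted p lay under 0.01 (edgeR's quasi-likelihood test, with the Benjamini-Hochberg adjustment over all genes tested). The single DEG higher at week 4 was 0.00556% of genes tested, and the 6 lower DEGs were 0.0334%. At adjusted p under 0.05, here called passing the test, 141 genes were higher (0.784%) and 183 lower (1.02%). The genes that rose did so by a median of 0.78 on the log2 scale (range 0.32 to 5.04), 44 of them by more than 1, and those that fell had a median of -1.03 (range -4.27 to -0.27), 96 of them beyond -1. The week 1 and week 4 libraries did not overlap for 136 of the 141 and 172 of the 183 genes. Over all genes tested, 4.79% did not overlap with week 4 higher and 5.09% with week 4 lower. The median log2 fold change of all genes was 0.04. With median-of-ratios size factors 111 genes were higher and 233 lower, so 32.3% of calls were higher, against 43.5% with TMM.

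The number of calls depended on single libraries and on the estimate of the spread. The 26 libraries share that estimate. When edgeR was fitted to the 7 libraries alone, no gene passed in either direction (smallest adjusted p = 0.248), 1393 of 16602 genes had an unadjusted p under 0.05, and DESeq2 on the same 7 libraries called 128 genes higher and 206 lower. Without +PBS-1w replicate 1, 2 of the 141 and 9 of the 183 genes still passed. Without +PBS-4w replicate 2 these were 33 and 23, without +PBS-1w replicate 2 they were 34 and 68, and without +PBS-4w replicate 4 they were 70 and 81. Among the libraries other than replicate 1, 34 and 70 passed. Leaving out the pair of libraries that stood apart kept 101 and 166 and raised all calls to 855 higher and 567 lower. All 141 genes stayed higher and all 183 stayed lower in each fit that left out libraries, except Cxcl13 without +PBS-1w replicate 2. The 9 genes that passed with any 1 of the 7 libraries left out were Prodh1, which rose, and Angptl4, Cd8a, Cfp, Col20a1, Col7a1, Ninj1, Sdc1 and Ttyh3, which fell.

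Cd8a (ENSRNOG00000007178) encodes the alpha chain of the CD8 co-receptor of cytotoxic T lymphocytes, which a subset of macrophages and natural killer cells in rats also carries. It measured 57.6, 153 and 72.8 CPM in replicates 1 to 3 of week 1 and 20.0, 7.02, 13.4 and 20.0 CPM in replicates 1 to 4 of week 4. Every week 4 library was below every week 1 library, and the 2 libraries of week 2 lay at 33.8 and 12.5 CPM. The level fell 6.28-fold (log2 fold change -2.65 ± 0.37 (SE), 95% interval -3.43 to -1.87, adjusted p = 0.00216). Intact cords held 0.312 ± 0.173 CPM (SD, n = 4) and sub-SCI cords 168 ± 9.89 CPM (SD, n = 3), so that the week 4 cords had not returned to the uninjured level.

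Cfp (ENSRNOG00000025811) encodes properdin, which stabilizes the alternative pathway convertase of complement. Its levels were 86.5, 95.1 and 47.1 CPM at week 1 and 26.6, 26.1, 28.1 and 24.8 CPM at week 4. The week 4 libraries lay close together, all below week 1 and above the Intact mean of 19.9 ± 2.45 CPM (SD, n = 4). Cfp fell 2.89-fold (-1.53 ± 0.22, adjusted p = 0.00216).

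Sdc1 (ENSRNOG00000059947), which encodes the heparan sulfate proteoglycan syndecan-1 of epithelial and plasma cells and of injured tissue, was at 51, 46.2 and 37.3 CPM at week 1. At week 4 it was at 11.4, 11.4, 16.3 and 14.2 CPM, below every week 1 library. The fall was 3.37-fold (-1.75 ± 0.23, adjusted p = 0.00197). The sub-SCI mean was 107 ± 25.7 CPM (SD, n = 3) and the Intact mean 3.76 ± 1.45 CPM (SD, n = 4). Angptl4 (ENSRNOG00000007545) encodes a secreted inhibitor of lipoprotein lipase that fatty acids and low oxygen induce. It was at 46.5, 52.7 and 48.5 CPM at week 1 and at 16.2, 14.0, 22.7 and 14.0 CPM at week 4. The groups did not overlap, and the fall was 2.95-fold (-1.56 ± 0.23, adjusted p = 0.00247).

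Rrm2 (ENSRNOG00000054286), the small subunit of ribonucleotide reductase that supplies deoxynucleotides for DNA synthesis, was at 15.4, 8.65 and 10.4 CPM at week 1 and at 2.91, 1.87, 2.51 and 3.67 CPM at week 4. Aspm (ENSRNOG00000012318), a spindle pole protein of dividing cells, was at 16.9, 13 and 16.9 CPM and then at 5.70, 5.61, 6.49 and 8.12 CPM. Both groups were separate for both genes, and the week 4 levels bracketed the Intact means of 3 CPM for Rrm2 and 6.63 CPM for Aspm. Rrm2 fell 4.20-fold (-2.07 ± 0.33, adjusted p = 0.00616) and Aspm 2.41-fold (-1.27 ± 0.21, adjusted p = 0.0079). Without +PBS-1w replicate 1, the adjusted p was 0.0542 for both.

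Prodh1 (ENSRNOG00000000281) encodes proline dehydrogenase, the mitochondrial enzyme that starts the breakdown of proline. It was at 51.4, 43.9 and 47.2 CPM at week 1 and at 89.4, 136, 176 and 90.7 CPM at week 4. All week 4 libraries were above all week 1 libraries, and both week 2 libraries, at 90.1 and 108 CPM, were too. The rise was 2.59-fold (1.37 ± 0.22, adjusted p = 0.0061). Intact cords held 87.4 ± 16.1 CPM (SD, n = 4) and sub-SCI cords 31.1 ± 5.32 CPM (SD, n = 3).

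**Figure D2:**
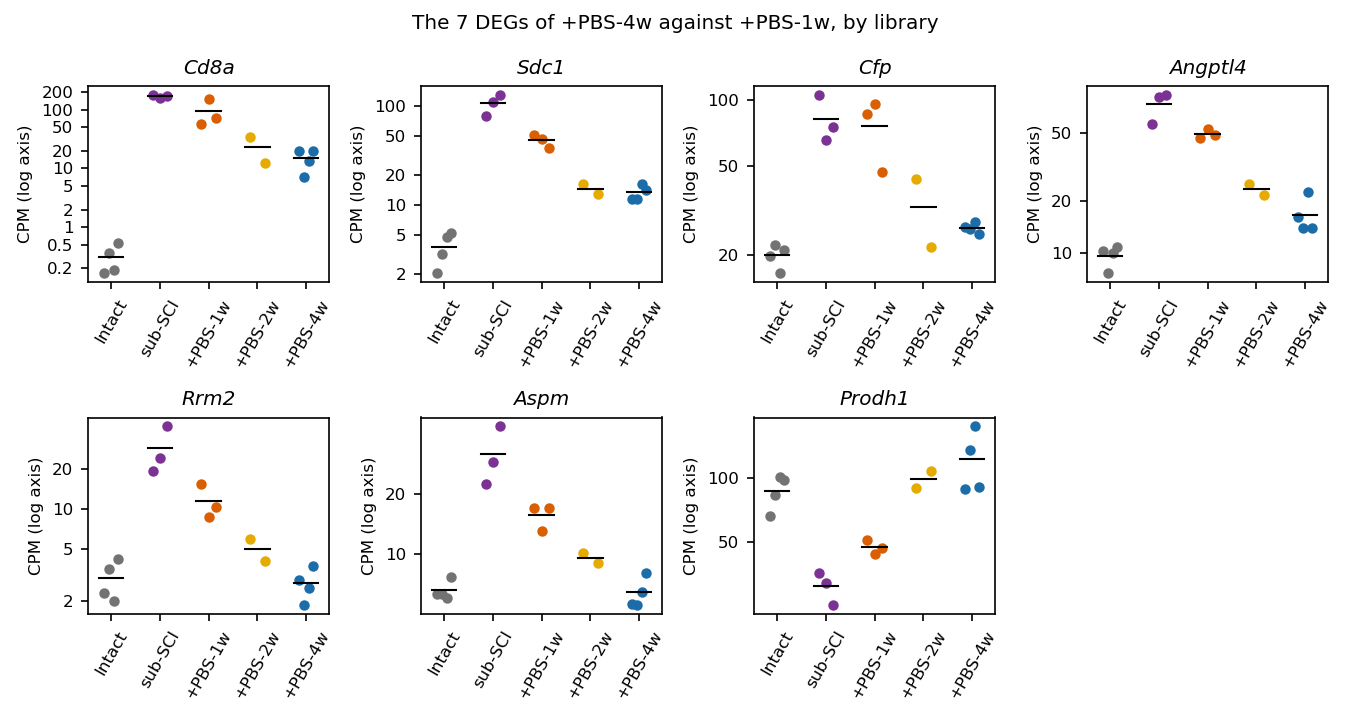
CPM of the 7 DEGs (log axes) in each library of Intact, sub-SCI, +PBS-1w, +PBS-2w and +PBS-4w, 1 point per library with the group mean as a line. For Cd8a, Sdc1, Cfp, Angptl4, Rrm2 and Aspm all 4 week 4 points lie below all 3 week 1 points, for example at 11.4 to 16.3 against 37.3 to 51 CPM for Sdc1, and for Prodh1 they lie above, at 89.4 to 176 against 43.9 to 51.4 CPM.

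Of 31 genes of cell division tested, 13 passed the test, all of them lower, and 30 had a negative log2 fold change (median -1.20, range -2.07 to 1.08). The 2 groups did not overlap for 22 of the 31, all with week 4 lower. Among all genes tested, 5.09% did not overlap with week 4 lower and 1.02% passed as lower. The summed level of the list was 743, 477 and 620 CPM in the week 1 libraries and 481, 321, 331 and 409 CPM in the week 4 libraries, against 194 to 260 CPM in the Intact libraries. The sum of +PBS-1w replicate 2 lay below that of +PBS-4w replicate 1, the library richest in neuron markers.

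Mki67 encodes Ki-67, a protein of all cycling cells. It was at 64.1, 37.7 and 44.1 CPM at week 1 and at 12.6, 14.1, 18.1 and 25.5 CPM at week 4, with no overlap (-1.47 ± 0.38, adjusted p = 0.0477). Ccnb1, the cyclin that drives entry into mitosis, was at 12.6, 7.12 and 8.85 CPM and then at 4.02, 2.82, 3 and 4.45 CPM (-1.42 ± 0.26, adjusted p = 0.0163). Bub1b, a kinase of the spindle checkpoint, was at 12.2, 5.41 and 8.29 CPM and then at 2.91, 2.12, 1.79 and 4.18 CPM (-1.65 ± 0.39, adjusted p = 0.0336). In all of these +PBS-1w replicate 1 was the highest library and the groups did not overlap. With each of the 7 libraries left out in turn, Mki67 passed in 1 fit, Ccnb1 in 6 and Bub1b in 4. Of the other called genes of the list, Ccna2 (cyclin A), Plk1 (a mitotic kinase), Bub1 and Cdc20 (spindle checkpoint and exit from mitosis), Cenpe and Cenpf (kinetochore), and Tpx2, Prc1 and Hmmr (spindle microtubules) had log2 fold changes between -1.51 and -1.05. Top2a (-1.50 ± 0.41, adjusted p = 0.0652), Kif11 (-1.27 ± 0.35, adjusted p = 0.0639) and Mcm3 (-0.71 ± 0.19, adjusted p = 0.0633) did not pass. The count of 13 was 0 without +PBS-1w replicate 1, 2 without +PBS-4w replicate 2, 4 without +PBS-4w replicate 3 and 8 without +PBS-4w replicate 4, while the median of the list stayed between -1.37 and -1.01 in the 7 fits that left out a library. The count was 3 among libraries other than replicate 1 and 18 without the pair that stood apart. Leaving out that pair was chosen after seeing the data and raised the calls over all genes, so the count of 18 is a description only.

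Promoters of these genes are shown because genes of mitosis are known to share short elements near their start, the CHR element and the CCAAT box, through which they are switched with the cell cycle. RefSeq promoters (rat build GRCr8, whereas the counts rest on Rnor6) were read over the 250 bases before the start of transcription, each printed on the strand of its gene, for the 4 called genes that held the CHR element. Capitals mark each match of the CHR element (TTTGAA, or TTCAAA on the other strand) and of the CCAAT box (CCAAT, or ATTGG on the other strand).
Mki67, chr1:199952594-199952843, minus strand: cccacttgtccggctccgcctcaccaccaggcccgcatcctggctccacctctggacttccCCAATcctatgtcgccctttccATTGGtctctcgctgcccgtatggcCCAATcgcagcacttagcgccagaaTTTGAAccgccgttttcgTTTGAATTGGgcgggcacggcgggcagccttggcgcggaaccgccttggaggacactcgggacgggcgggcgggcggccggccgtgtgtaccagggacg
Prc1, chr1:143659231-143659480, plus strand: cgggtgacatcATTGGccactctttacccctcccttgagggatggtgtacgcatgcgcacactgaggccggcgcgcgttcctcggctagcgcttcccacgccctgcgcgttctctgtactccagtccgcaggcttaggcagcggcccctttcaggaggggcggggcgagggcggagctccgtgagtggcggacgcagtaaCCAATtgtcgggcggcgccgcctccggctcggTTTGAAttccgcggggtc
Cdc20, chr5:137255800-137256049, minus strand: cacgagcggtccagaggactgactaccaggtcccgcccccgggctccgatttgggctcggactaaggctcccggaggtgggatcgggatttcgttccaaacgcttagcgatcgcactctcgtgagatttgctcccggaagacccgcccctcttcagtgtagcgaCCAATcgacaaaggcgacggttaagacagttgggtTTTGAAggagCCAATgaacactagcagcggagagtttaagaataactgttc
Hmmr, chr10:25665216-25665465, minus strand: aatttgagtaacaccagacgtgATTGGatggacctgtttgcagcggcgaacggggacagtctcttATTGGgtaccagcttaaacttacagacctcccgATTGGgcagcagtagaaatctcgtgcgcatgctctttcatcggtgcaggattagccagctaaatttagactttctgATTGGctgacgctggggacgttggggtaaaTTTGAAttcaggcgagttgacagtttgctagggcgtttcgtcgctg
Of the 13 called genes 10 had a promoter in the table, of which 4 held the CHR element and 8 a CCAAT box. Bub1 and Bub1b held neither set of letters in this window. Over all 25 cell division genes with a promoter, 36% held the CHR element and 80% a CCAAT box, against 10.8% and 35.1% of the 11153 promoters of genes tested and 16.1% and 34.4% of all 24206 promoters. In Mki67 the CHR element that begins 99 bases before the start shares its last base with a CCAAT box on the other strand. In Prc1 the CHR element begins 18 bases before the start and the nearest CCAAT box 50 bases before it. A match is a description of the letters and no measurement of binding.

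Of 14 complement genes tested, 3 passed, all of them lower, and 12 had a negative log2 fold change (median -0.68). The groups did not overlap for 6, with week 4 lower, against 5.09% of all genes tested, and 1.02% of all genes passed as lower. The list summed to 6464, 7529 and 5257 CPM at week 1 and to 3771, 3351, 3982 and 3220 CPM at week 4, and all week 4 sums were below all week 1 sums but above the Intact range of 361 to 747 CPM. C1qb and C1qc encode chains of C1q, the starter of the classical pathway that microglia and macrophages make. C1qb was at 1240, 1248 and 732 CPM at week 1 and at 608, 375, 534 and 389 CPM at week 4 (-1.17 ± 0.26, adjusted p = 0.0244). C1qc was at 1397, 1244 and 751 CPM and then at 572, 326, 506 and 322 CPM (-1.39 ± 0.30, adjusted p = 0.0228). The third chain, C1qa, had groups that overlapped and did not pass (-0.98 ± 0.28, adjusted p = 0.0816). C5ar1, the receptor of the fragment C5a on phagocytes, was at 46.5, 30.6 and 32.1 CPM and then at 11.3, 14.0, 15.6 and 14.9 CPM. Its groups did not overlap (-1.39 ± 0.27, adjusted p = 0.0187), and it lost its call without +PBS-1w replicate 1 alone (adjusted p = 0.12). C3, the central component, was at 1608 CPM in +PBS-1w replicate 2 and between 206 and 442 CPM in the other 6 libraries (-1.80 ± 0.54, adjusted p = 0.088). The list's count of 3 was 0 without +PBS-1w replicate 1, 1 without +PBS-1w replicate 2, +PBS-4w replicate 2 or +PBS-4w replicate 4, and 5 without +PBS-1w replicate 3.

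Other genes of phagocytes passed singly, beside 1.02% of all genes tested that passed as lower. Ctsl, a lysosomal protease, was at 812, 758 and 838 CPM at week 1 and at 461, 525, 603 and 540.0 CPM at week 4, with no overlap (-0.59 ± 0.13, adjusted p = 0.0285). It was the called one of 19 phagocyte and lysosome genes, of which 18 had a negative log2 fold change (median -0.33). Folr2, a folate receptor of macrophages at tissue borders, was at 166, 101 and 122 CPM and then at 45.5, 42.8, 69.2 and 55.9 CPM (-1.28 ± 0.32, adjusted p = 0.0429). Hmox1, heme oxygenase, which degrades the heme of lysed red cells, was at 285, 143 and 163 CPM and then at 88.9, 57.5, 94.8 and 80.1 CPM (-1.29 ± 0.24, adjusted p = 0.0185). Folr2 was the called one of 7 border macrophage genes, of which 4 were negative and 3 positive (median -0.04), and Hmox1 of 9 iron and heme genes, of which 7 were negative (median -0.26). The groups of both genes were separate, and all 4 week 4 levels remained above the Intact means of 1.95 CPM for Folr2 and 15.8 CPM for Hmox1. Of the 11 homeostatic microglia genes none passed in edgeR with all libraries (median -0.61, 1 positive), and 7 were lower at an unadjusted p under 0.05. Over all 17990 genes tested, 1294 were lower at that threshold. DESeq2 on all libraries, which called more genes lower in all than edgeR did, called 3 of the 11 lower. Cx3cr1, the fractalkine receptor of microglia, had a log2 fold change of -1.02 ± 0.28 (adjusted p = 0.0611). Without the pair of libraries that stood apart, 6 of the 11 passed, all lower. That pair was chosen after seeing the data, and leaving it out raised the calls over all genes, so this count is a description only. Ctsl and Folr2 each lost the call without either of +PBS-1w replicates 1 and 2 or of +PBS-4w replicates 2 and 4, and Folr2 also without +PBS-4w replicate 1 (highest adjusted p = 0.225), and Hmox1 without +PBS-1w replicate 1 or +PBS-4w replicate 2 (highest adjusted p = 0.131).

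Of the 9 cytokine genes and the 18 chemokine and chemokine receptor genes, 3 passed, all lower. Beside these, 1.02% of all genes tested passed as lower. Lif, leukemia inhibitory factor, a cytokine that activates astrocytes, was at 3.75, 5.11 and 4.56 CPM at week 1 and at 0.559, 1.69, 1.16 and 1.24 CPM at week 4, a fall with no overlap (-1.94 ± 0.37, adjusted p = 0.0185). Without +PBS-1w replicate 1 its adjusted p was 0.0542. Ccl6, a chemokine that attracts myeloid cells, was at 38.4, 52.0 and 25.7 CPM and then at 12.6, 11.4, 15.1 and 18.6 CPM (-1.43 ± 0.37, adjusted p = 0.0498). It passed in 1 of the 7 fits that left out a library, the one without +PBS-1w replicate 3, with an adjusted p of at most 0.193. Cxcl13, which attracts B lymphocytes, was at 4.99, 189.5 and 6.08 CPM at week 1 and between 4.70 and 8.15 CPM at week 4. Its groups overlapped, and its call (-3.53 ± 0.88, adjusted p = 0.0421) rested on +PBS-1w replicate 2, without which the log2 fold change was 0.07 (adjusted p = 0.98). Of the 9 cytokine genes 8 were negative (median -1.03) and 5 did not overlap with week 4 lower, against 5.09% of all genes tested. Of 18 chemokine and receptor genes 13 were negative (median -0.32).

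Of 16 T lymphocyte and cytotoxic genes Cd8a was the only one that passed with all libraries, beside 1.02% of all genes tested that passed as lower. Of the 16, 15 were negative (median -0.51) and 3 were lower at an unadjusted p under 0.05, as were 1294 of all 17990 genes tested. With week 4 lower, 4 of the 16 did not overlap, against 5.09% of all genes tested. Prf1, perforin, which cytotoxic lymphocytes release to open target membranes, was at 0.862, 1.12 and 1 CPM at week 1 and at 0.186, 0.494, 0.358 and 0.229 CPM at week 4, with no overlap but no call (-1.62 ± 0.69, adjusted p = 0.248). Cd8b, the partner chain on cytotoxic T lymphocytes, was at 17.2, 30.2 and 28.1 CPM at week 1 and at 15.3, 8.78, 18.8 and 15.4 CPM at week 4. Its groups overlapped, and the difference did not pass (-0.79 ± 0.27, adjusted p = 0.149). The list summed to 258, 468 and 279 CPM at week 1 and to 180.0, 173, 198 and 179.8 CPM at week 4, while the Intact libraries lay between 23.8 and 34.0 CPM. MHC class II genes, which present antigen to helper T lymphocytes, had 8 of 10 positive (median 0.40), with none passing in edgeR or in DESeq2 on all libraries and 0 at an unadjusted p under 0.05 in edgeR, and the highest sum, 991 CPM, in +PBS-4w replicate 1 against 185 to 445 CPM in the other 6 libraries.

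Single matrix genes fell while the collagen genes as a list did not keep a direction. Of 15 collagen genes tested 2 passed, both lower, beside 1.02% of all genes tested that passed as lower. The list's median of -0.61 became 0.14 without +PBS-1w replicate 3 and 0.42 without the pair of libraries that stood apart. The 2 called genes were chains of the collagen of basement membranes. Col4a1 was at 355, 394 and 621 CPM at week 1 and at 101, 232, 221 and 196 CPM at week 4 (-1.28 ± 0.25, adjusted p = 0.0194). Col4a2 was at 217, 209 and 357 CPM and then at 47.8, 149, 145 and 135 CPM (-1.13 ± 0.26, adjusted p = 0.0297). For each, +PBS-1w replicate 3 was the highest and +PBS-4w replicate 1 the lowest library, and with both left out the log2 fold changes were -0.79 (adjusted p = 0.0333) and -0.57 (adjusted p = 0.0237). Without +PBS-1w replicate 1 neither passed (adjusted p = 0.0542 and 0.0951), and Col4a2 also lost its call without +PBS-1w replicate 3 or +PBS-4w replicate 2. Col1a1, the main fibrillar collagen of scars, was at 1554, 1280 and 2904 CPM and then at 298, 1098, 831 and 1126 CPM (-1.19 ± 0.65, adjusted p = 0.401).

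Postn, Tnc and Vcan also passed. Postn, periostin, which fibroblasts secrete into fibrotic scars, was at 111, 124 and 119 CPM at week 1 and at 7.56, 23.7, 17.4 and 29.4 CPM at week 4. The week 4 libraries all lay far below the week 1 libraries, with a log2 fold change of -2.59 ± 0.56 (adjusted p = 0.0234). The sub-SCI mean was 246 CPM and the Intact mean 7.29 CPM. Tnc, tenascin-C, a matrix protein of reactive astrocytes and wounds, was at 125, 130.3 and 153 CPM and then at 18.2, 37.5, 20.1 and 69.1 CPM (-1.91 ± 0.48, adjusted p = 0.0441). It was the called one of 13 reactive astrocyte genes, of which 9 were negative and 4 positive (median -0.13). Among the positive was Gfap, the intermediate filament of astrocytes, at 8341, 9904 and 4018 CPM and then at 15222, 9539, 9373 and 13624 CPM, with groups that overlapped (0.69 ± 0.28, adjusted p = 0.236). Vcan, versican, a chondroitin sulfate proteoglycan that limits axon growth, was at 214, 243 and 136 CPM and then at 71.7, 92.7, 132 and 119.6 CPM (-0.93 ± 0.21, adjusted p = 0.0291). None of the 3 overlapped, but Tnc passed in 1 of the 7 fits without a library (highest adjusted p = 0.152), and Postn and Vcan lost their calls without +PBS-1w replicate 1, +PBS-1w replicate 2 or +PBS-4w replicate 2 (highest adjusted p = 0.0984 and 0.153). Postn was the called one of 20 noncollagen scar genes, whose median of -0.37 was 0.16 without +PBS-1w replicate 3, and Vcan of 12 proteoglycan and link protein genes (median 0.13). Timp4, an inhibitor of matrix metalloproteinases, rose from 20.4, 22.6 and 16.4 CPM to 55.9, 35.2, 35.5 and 36.1 CPM (1.04 ± 0.22, adjusted p = 0.0228), and lost the call without +PBS-1w replicate 1 (adjusted p = 0.12). It was the called one of 18 matrix protease and inhibitor genes, of which 12 were negative (median -0.35). Beside these single calls, 1.02% of all genes tested passed as lower and 0.784% as higher.

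Col20a1 and Col7a1, a minor collagen and the anchoring fibril collagen, were not in the list and are named after their values were seen, because they passed in all 7 fits that left out a library. Col20a1 was at 47.0, 61.9 and 51.3 CPM at week 1 and at 13.6, 17.0, 26.2 and 20.7 CPM at week 4 (-1.46 ± 0.26, adjusted p = 0.015). Col7a1 was at 55.0, 71.3 and 74.2 CPM and then at 19.8, 29.6, 42.1 and 30.9 CPM (-1.13 ± 0.20, adjusted p = 0.0137). Both fell without overlap, and neither stood out in +PBS-1w replicate 3, the library rich in collagen transcripts. For the same reason Ninj1, ninjurin-1, a membrane protein of injured nerve that ruptures the membrane of dying cells, is named. It was at 118, 127 and 114 CPM and then at 75.7, 59.0, 73.4 and 67.6 CPM, with no overlap (-0.80 ± 0.12, adjusted p = 0.00402).

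Of the 600 genes tested in the gene lists 5 passed as higher, beside 0.784% of all genes tested. In cholesterol synthesis and uptake, which supplies membrane for myelin, 2 of 22 genes passed, both higher, and 21 were positive (median 0.40). Insig1, a protein that helps retain SREBP in the endoplasmic reticulum, was at 44.1, 50.6 and 43.1 CPM at week 1 and at 93.0, 93.8, 62.5 and 74.8 CPM at week 4 (0.82 ± 0.19, adjusted p = 0.0351). Srebf2, the transcription factor that drives the pathway, was at 103, 108 and 98.2 CPM and then at 131, 163, 125 and 147 CPM (0.46 ± 0.11, adjusted p = 0.0334). Both groups were separate for both genes, and all week 4 levels were below the Intact mean of 252 CPM, which was the same for each. Both calls were lost without any 1 of the week 1 libraries and without +PBS-4w replicate 2 or 4 (highest adjusted p = 0.173 and 0.153). Central myelin genes, which encode the proteins of the sheath itself, had a median of -0.04 over 14 genes with none passing in edgeR, 1 higher at an unadjusted p under 0.05 and 0 called by DESeq2 on all libraries.

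Motile cilia genes were positive in all 12 tested (median 0.67). Of these, 1 passed and 3 did not overlap, against 0.784% and 4.79% of all genes tested with week 4 higher. The cilia genes summed to 243, 250.4 and 251 CPM at week 1 and to 396, 345, 279.8 and 409 CPM at week 4. All week 4 sums lay above all week 1 sums, against 364 to 394 CPM in the Intact libraries. Dnai1, an intermediate chain of the dynein arms that move the cilium, rose from 2.82, 2.46 and 2.32 CPM to 4.55, 5.29, 3.98 and 5.14 CPM (0.90 ± 0.22, adjusted p = 0.036). Spag6, of the central pair of the axoneme (1.30 ± 0.39, adjusted p = 0.0887), and Tekt1, of its microtubule wall (0.69 ± 0.22, adjusted p = 0.11), did not pass. Dnai1 passed in 2 of the 7 fits that left out a library, and 5 of the 12 genes passed without the pair of libraries that stood apart. Leaving out that pair was chosen after seeing the data and raised the calls over all genes, so the count of 5 is a description only. Cntf, a survival factor for motor neurons made by astrocytes and Schwann cells, was the called one of 11 neurotrophic genes, of which 8 were negative (median -0.28). It was at 17.8, 33.1 and 15 CPM at week 1 and at 48.4, 40.4, 37.4 and 34.5 CPM at week 4, with no overlap but a narrow gap between the groups (0.87 ± 0.22, adjusted p = 0.0475), and passed in 1 of the 7 fits that left out a library.

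**Figure D3:**
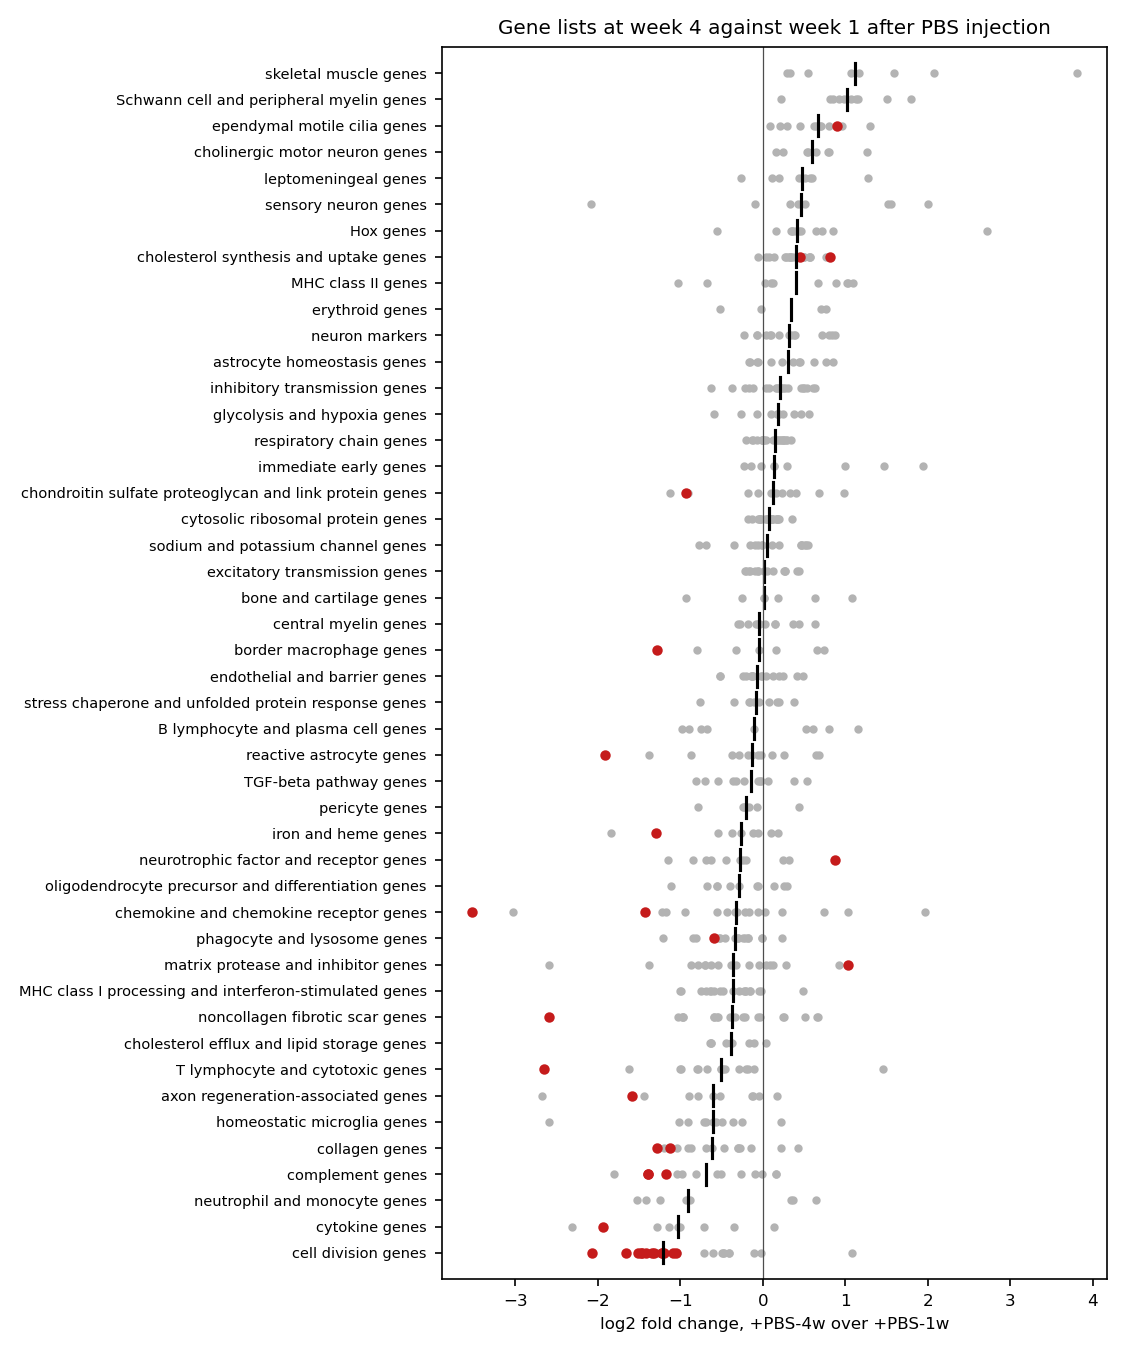
Log2 fold change of +PBS-4w over +PBS-1w (horizontal axis) for each tested gene of the 46 gene lists (rows, ordered by median), with genes passing the test in red, others in grey and the list median as a black bar. Cell division genes lie at the low end with a median of -1.20 and 13 red points, and motile cilia genes are all to the right of 0 with a median of 0.67.

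In all 46 lists, 600 genes were tested, 5 passed as higher and 29 as lower, beside 0.784% and 1.02% of all genes tested. Sox11, a transcription factor of growing axons, was the called one of 11 axon regeneration genes, of which 10 were negative (median -0.60), at 8.53, 5.33 and 1.76 CPM at week 1 and between 1.62 and 2.01 CPM at week 4. Its groups overlapped in +PBS-1w replicate 3 (-1.58 ± 0.39, adjusted p = 0.0403), and it passed in 2 of the 7 fits that left out a library. Neuron markers had no call among 15 genes, and their median of 0.31 became -0.29 without +PBS-4w replicate 1. Snap25, of the synaptic vesicle fusion machinery, was at 739 CPM in that library and between 129 and 194 CPM in the other 6. Cholinergic motor neuron genes were all positive (8 of 8, median 0.59, none passing), with a median of 0.15 without that library. All 10 Schwann cell genes were positive with none passing (median 1.03, and 2.50 without +PBS-1w replicate 3). Without the pair of libraries that stood apart, 7 of the 10 passed, all higher. The pair was chosen after seeing the data, and it holds the week 1 library highest in Schwann cell genes (4043 CPM). This choice favors such calls, so the count is a description only. The 8 skeletal muscle genes had a median of 1.12, and of -0.65 without +PBS-4w replicate 2. Cytosolic ribosomal proteins (24 genes, median 0.07) and the respiratory chain (21 genes, median 0.15) held no called gene. At an unadjusted p under 0.05, edgeR had 2 cholinergic, 2 Schwann cell and 2 respiratory chain genes higher and none of the neuron marker, muscle or ribosomal genes, and DESeq2 on all libraries called 1 gene of these lists, a Schwann cell gene that was higher.

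Genes of inhibitory transmission, through GABA and glycine, held no called gene among 21 in edgeR (median 0.21, 16 positive). At an unadjusted p under 0.05 there was 1, and DESeq2 on all libraries called 0. The median of the list was -0.10 without +PBS-4w replicate 1 and -0.26 without the pair of libraries that stood apart. Slc12a5, which encodes the chloride exporter KCC2 of mature neurons, was at 86.0, 71.9 and 44.5 CPM at week 1 and at 123, 49.4, 72.2 and 69.7 CPM at week 4. Its groups overlapped, the 95% interval of its log2 difference, -0.57 to 1.00, includes both a rise and a fall, and every library lay below the Intact mean of 428 CPM.

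The changed genes were set against the levels before injury and at the start of the vehicle period. Of the 183 genes that fell, 155 (84.7%) were DEGs higher in sub-SCI than in Intact, against 16.6% of all genes tested, and 2 (1.09%) were DEGs lower in sub-SCI. Of the 141 that rose, 49 (34.8%) were DEGs lower in sub-SCI than in Intact, against 17.5% of all genes tested, and none was a DEG higher in sub-SCI. The week 4 mean was still above the Intact mean for 151 of the 183 genes that fell, and it was above the Intact mean also for 97 of the 141 that rose. The same share over all genes tested was not computed. Choosing genes that are high at week 4 favors the count of 97. The mean of the 2 libraries of week 2 lay between the means of weeks 1 and 4 for 115 of the 141 and 167 of the 183 genes, which the choice of genes with distant week 1 and week 4 means favors.

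**Figure D4:**
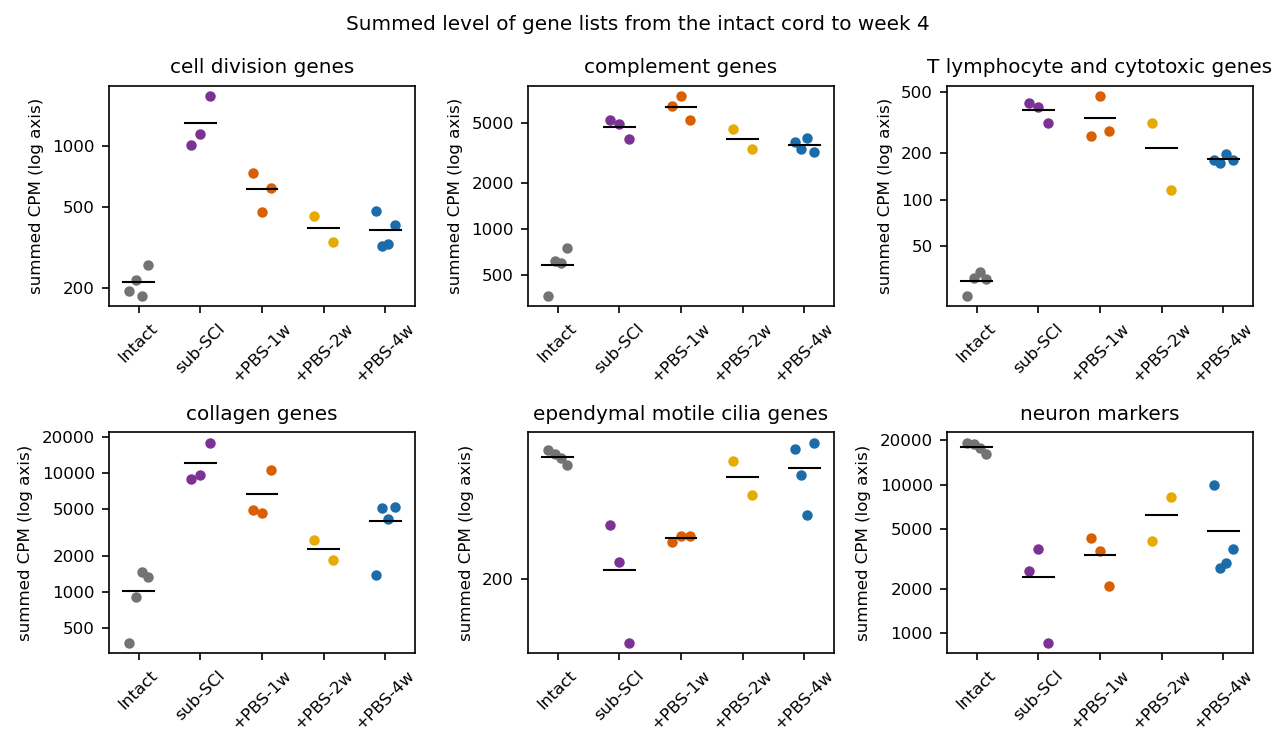
Summed CPM of 6 gene lists (log axes) in each library of Intact, sub-SCI, +PBS-1w, +PBS-2w and +PBS-4w, 1 point per library with the group mean as a line. Cell division genes average 1310 CPM in sub-SCI and 214 CPM in Intact, with all week 1 and week 4 libraries between (321 to 743 CPM), and complement sums at week 4 (3220 to 3982 CPM) lie below those at week 1 and above Intact.

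In the rats given hUC-MSCs, the same interval held no called gene in either direction. Of 17990 genes tested in edgeR, 268 were higher and 404 lower at an unadjusted p under 0.05. Without any change, a share of about 0.05 of the genes would lie under that threshold. Of the genes called in the vehicle groups, 127 of 141 were positive and 172 of 183 negative from +MSC-1w to +MSC-4w, against 52.0% positive and 48.0% negative of all genes tested. The median log2 fold changes there were 0.19 and -0.30. Cd8a lay between 14.1 and 29.9 CPM in +MSC-1w and between 10.8 and 15.8 CPM in +MSC-4w (-0.76 ± 0.37). Sdc1 lay between 17.3 and 18.8 CPM and then between 8.71 and 13.7 CPM (-0.63 ± 0.23), and Angptl4 between 18.7 and 20.4 CPM and then between 10.2 and 20.7 CPM (-0.48 ± 0.23). For these genes every +MSC-1w library was below every +PBS-1w library, while the +MSC-4w and +PBS-4w ranges overlapped. Prodh1 lay between 58.4 and 67.2 CPM and then between 69.2 and 122 CPM (0.55 ± 0.21). For the 31 cell division genes the median was -0.33.

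Whether the change with time differed between +MSC and +PBS was tested as an interaction over all genes. None passed in edgeR (smallest adjusted p = 0.491). At an unadjusted p under 0.05 the change was more positive in +MSC for 335 and more negative for 367 of 17990 genes tested. Without any difference, a share of about 0.05 would lie under that threshold. DESeq2 on all libraries called 2 and 2. The adjusted p was 0.999 for each of the 7 DEGs above. The 5 genes with the smallest p were RT1-CE3 (an MHC class I gene, -5.12 ± 0.97), Tob1 (an inhibitor of proliferation, -0.74 ± 0.16), Fanca (DNA crosslink repair, 1.43 ± 0.31), Ttyh3 (a chloride channel, 0.60 ± 0.13) and Nkain4 (a partner of the sodium pump, -0.86 ± 0.19), where the value is the log2 change in +MSC minus that in +PBS. RT1-CE3 was at 0.386, 0.709 and 1.16 CPM in +PBS-1w and at 10.6, 4.97, 5.10 and 3.35 CPM in +PBS-4w. It belongs to a family of near-identical class I genes whose reads the counting may have split, so its level is uncertain. Ttyh3 in the vehicle groups was at 217, 210.0 and 216 CPM at week 1 and at 125, 118, 143 and 149 CPM at week 4 (-0.68 ± 0.09, adjusted p = 0.00197), with no overlap.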

How the data were processed

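Rat spinal cord RNA was sequenced in 26 libraries of 8 groups, as the labels give them. The authors trimmed reads with Trim Galore 0.5.0, discarded reads that HISAT2 2.1.0 placed on GRCh38 (human), aligned the others to rat Rnor6, filtered with SAMtools 1.9 and counted with featureCounts 1.6.4. The deposited values are raw counts per Ensembl gene without normalization. The annotation release and strand setting are not given in the sources used here, so overlapping genes and close paralogs are uncertain. All 26 libraries' own counts equal the joint table, and 6513 genes had no count.

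In R 4.3.3, the genes that filterByExpr retained entered edgeR 4.0.16 after TMM normalization (glmQLFit, glmQLFTest; limma 3.58.1), all 26 libraries in 1 model of the 8 groups without covariates, with Benjamini-Hochberg adjustment over all genes tested. DESeq2 1.42.0, median-of-ratios size factors, no filter, at least 10 counts in every library, the 7 libraries alone, a replicate block, a term for replicate 1, the libraries other than replicate 1 and each library left out were alternatives. Leaving out the pair that stood apart was added after seeing the data. Principal components used log2 CPM with a prior count of 2. The scripts were tested on simulated data. The CPM of a gene with under 1 CPM rests on few reads.

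The comparison and the 46 gene lists (640 genes, 613 in the table) were chosen with earlier results of these data known. Another 5 lists were assembled after values were seen. The genes named were the DEGs, list members that passed with up to 4 others of each list, and the 5 with the smallest interaction p. Exceptions are stated. Some genes are not reported here.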

Additional observations from a re-analysis of the deposited data

Results flagged for a closer look

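Within the 4 libraries of +PBS-4w, 56 values (the CPM of genes and the sums of lists) were examined for a library far from the other 3, where the gap to its nearest neighbor divided by the range exceeded Dixon's 95% critical value, which chance exceeds in about 1 in 20 groups. It was exceeded for 6 of the 56. In replicate 1, Col4a2 was low at 47.8 CPM, and Timp4 at 55.9 CPM, Gstk1 (a glutathione S-transferase) at 55.3 CPM and the sum of the neuron markers at 9938 CPM were high. In replicate 2, Cxcl13 at 8.15 CPM and the sum of the skeletal muscle genes at 294 CPM were high. Thus 4 of the 6 values came from replicate 1, the library that stood apart on the first principal component. Timp4 and Gstk1 stayed called without that library, and so did Col4a2.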

How the results depend on the processing

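The counts of calls moved with the processing. The medians of the collagen, noncollagen scar, neuron marker and skeletal muscle lists changed sign with 1 library left out, as given above. Other lists did so too. Without +PBS-4w replicate 1 the median was -0.10 for inhibitory transmission, -0.13 for the respiratory chain and -0.12 for ribosomal proteins. It was 0.24 for border macrophage genes in that fit, and 0.38 for central myelin genes without +PBS-1w replicate 2. DEGs numbered 1 higher and 6 lower, and 42 and 122 with DESeq2 on all libraries, 39 and 81 with DESeq2 and 0 and 0 with edgeR on the 7 libraries, 3 and 16 with a term for replicate 1, 137 and 70 without the pair of libraries that stood apart, and 0 to 22 and 0 to 39 with each library left out. Genes passing at 0.05 numbered 141 and 183, and 318 and 520 with DESeq2 on all libraries, 0 and 0 with edgeR on the 7 libraries, 86 and 109 among libraries other than replicate 1, 215 and 291 with a term for replicate 1, 855 and 567 without the pair, and 2 to 292 and 9 to 326 with each library left out. Without a filter 51 were higher. The interaction called 0 more positive and 0 more negative in edgeR, 2 and 2 with DESeq2 on all libraries and 3 and 1 on the compared groups, 3 more negative without the pair, and 0 to 1 more negative with each library left out (1 without +MSC-4w replicate 3). The share of lower genes that were DEGs higher in sub-SCI was 84.7%, 71.2% with DESeq2 on all libraries and 78.0% among libraries other than replicate 1. The log2 fold change of Cxcl13 lay between -4.074 and 0.068 with each library left out, positive without +PBS-1w replicate 2. The causes were not tested. Same-numbered week 1 and week 4 libraries had correlations of deviations of 0.19, -0.169 and 0.084, within the range of all pairs (-0.273 to 0.31). Whether libraries of the same replicate number share a batch was not tested. With the replicate block, 172 genes were higher and 255 lower, 0 and 12 of them DEGs. Of the 64 genes named as passing, 64 also passed with DESeq2 on all libraries, 62 with median-of-ratios size factors, 56 without the pair, 52 without a filter, 9 without +PBS-1w replicate 1 and 23 without +PBS-4w replicate 2. With 3 against 4 libraries, a p that misses the threshold does not show equal levels.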

Other observations

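Further groups of genes were assembled after their values were seen, so their counts are descriptions only. Of 27 genes of myeloid receptors, signalling and transcription factors 15 passed, all lower, and all 27 were negative (median -0.79). Irf8, the transcription factor that microglia and monocytes require, was at 269.6, 251 and 183 CPM at week 1 and at 103, 84.2, 128 and 120.0 CPM at week 4 (-1.11 ± 0.22, adjusted p = 0.0191). Csf2rb, the shared receptor chain for GM-CSF and related cytokines, fell from 89.9, 159 and 74.9 CPM to 21.9, 37.2, 51.6 and 38.7 CPM (-1.53 ± 0.31, adjusted p = 0.0206), and Tlr2, a receptor for bacterial and damage signals, by 1.33 on the log2 scale (± 0.27, adjusted p = 0.0205). Aif1, which encodes the microglia and macrophage protein IBA1, was at 220.4, 162 and 165 CPM and then at 151, 59.7, 71.3 and 82.0 CPM and fell 2.01-fold (adjusted p = 0.0351). None of the 27 passed without +PBS-1w replicate 1 or without +PBS-4w replicate 2, and 1 did without +PBS-1w replicate 2.

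Glutathione S-transferases, which conjugate reactive molecules to glutathione, were positive in 15 of 16 (median 0.66), and 6 passed, all higher. Gstm1 was at 75.6, 66.3 and 86.5 CPM at week 1 and at 129.9, 120.1, 102 and 149.6 CPM at week 4 (0.72 ± 0.14, adjusted p = 0.0205). Gsta1 was at 49.1, 61.3 and 45.8 CPM and then at 204, 76.8, 109 and 100.5 CPM (1.24 ± 0.27, adjusted p = 0.0234). The groups of both were separate, and members of this family share sequence, so reads may be split among them. Genes of amino acid breakdown, Prodh1 among them, were positive in 23 of 23 (median 0.37), and 8 passed, all higher. Hibadh, of valine breakdown, rose from 73.7, 83.0 and 68.4 CPM to 132, 102, 109.8 and 107 CPM (0.59 ± 0.10, adjusted p = 0.00971). Without +PBS-1w replicate 1 none of the glutathione S-transferases and 1 of the amino acid genes passed.

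Genes of intraflagellar transport and the BBSome, which build and serve cilia, were positive in 25 of 27 (median 0.31), and 5 passed (Ift81, Bbs2, Arl6, Wdr35 and Ttc30b). Rfx2, a transcription factor of ciliary genes, was at 10.8, 12.9 and 10.2 CPM at week 1 and at 15.4, 21.1, 20.1 and 23.0 CPM at week 4 (0.82 ± 0.17, adjusted p = 0.0228). None of the 27 passed without +PBS-1w replicate 1 or +PBS-4w replicate 2. Per1, a clock gene that glucocorticoids and light induce, was at 40.6, 38.5 and 78.5 CPM and then at 113, 154, 204 and 134 CPM (1.52 ± 0.35, adjusted p = 0.0306), the called one of 16 clock genes. It lost the call without +PBS-1w replicate 1 or 2 or +PBS-4w replicate 2 or 3 (highest adjusted p = 0.176), and the time of day of collection is not given in the sources used here. Clu, clusterin, a chaperone that astrocytes secrete, was at 2218, 2469 and 1905 CPM and then at 4204, 3087, 3195 and 3710 CPM, with no overlap (0.69 ± 0.17, adjusted p = 0.0358). All 7 libraries lay above the Intact mean of 1221 CPM. Igsf1, a membrane glycoprotein of the immunoglobulin superfamily, was at 31.5, 37.2 and 30.9 CPM and then at 146, 89.4, 74.2 and 129 CPM (1.73 ± 0.34, adjusted p = 0.0194). Clu passed in 1 of the 7 fits that left out a library, and Igsf1 in 6 of them, without +PBS-1w replicate 1 at an adjusted p of 0.114.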
